A study of Mus musculus with 6 samples.

Results

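The kinesin superfamily genes measured here were those with a symbol beginning Kif or Kifc, which encode the motor subunits, and Klc1 to Klc4, which encode the light chains of conventional kinesin. The rule used the gene symbols alone and found 44 of the 24214 features in each table, of which 40 were motors and 4 were light chains. The motors were sorted by known role into 13 mitotic kinesins, 15 cargo transport kinesins and 12 others. The samples were 393P cells, an epithelial murine LUAD (lung adenocarcinoma) cell line that the labels describe as KP lung cancer cells of C57BL/6 strain. One group (393P_ZEB1) carried a ZEB1 expression vector and the other (393P_vector) the empty vector, both grown in RPMI-1640 with serum, with 3 samples in each. The study's methods describe such transfectants as stable lines selected with puromycin or G418, so an effect of ZEB1 and other differences between the selected lines cannot be told apart. The labels do not say that the samples of a group were separate cultures, so the p-values measure the spread between these samples, which may be technical.

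Kinesins are ATPases that walk along microtubules, most of them toward the plus ends. Cargo kinesins carry vesicles, organelles and protein complexes toward the cell periphery, and conventional kinesin (kinesin-1) does so as a pair of heavy chains (Kif5a, Kif5b or Kif5c) that bind cargo directly or through a pair of light chains. Mitotic kinesins build the spindle, move chromosomes and complete cytokinesis, and their transcripts accumulate in dividing cells.

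Total RNA was sequenced on the SOLiD platform, and the deposited counts summed to between 54442450 and 79158012 per sample. Levels are given as CPM, counts scaled to the library size as normalised by the TMM method of edgeR, and levels of different genes are compared only as RPKM, which also divides by exon length. The floor was set at 3 counts in a sample, or 0.0379 to 0.0551 CPM, and covers counting error only. The targeted gene Zeb1 stood at 21.2, 22.0 and 21.4 CPM in 393P_vector samples and at 54.9, 48.9 and 51.3 CPM in 393P_ZEB1 samples. These counts would include any vector sequence that aligned to the gene. Zeb1 lies on chromosome 18, whose tested genes had a median log2 fold change of 0.64. Its own log2 fold change was 1.26, or 0.63 relative to that median. The epithelial markers Cdh1, Epcam and Krt8 were among the 12 of 13 that fell, and 6 of 8 mesenchymal markers rose. Those 6 include Zeb1 itself, the targeted gene. The lung lineage markers Nkx2-1, Sftpc, Sftpb and Scgb1a1 were at or near 0 in all samples, whereas Foxa1 and Foxa2 were detected. The summed level of 7 leukocyte markers was between 0.828 and 2.12 CPM over all samples. Replicate 3 of 393P_vector stood apart from the other samples, with a limma sample weight of 0.111 against 0.726 to 3.02 elsewhere. For 31 of the 40 tested kinesin genes, it lay farther from the mean of replicates 1 and 2 than these lay from each other. Counts of calls are therefore also given without it.

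Of the 44 kinesin genes, 40 passed the filter on low counts. The edgeR quasi-likelihood test, with p-values adjusted over all 13892 genes tested and a threshold of 0.05, called 8 of them higher and 12 lower in 393P_ZEB1 cells. This share of 50.0% stood beside 37.6% of all genes tested, of which 18.3% were higher and 19.3% were lower. The median log2 fold change was -0.05 over the 40 kinesin genes and -0.02 over all genes tested. The samples of the 2 groups did not overlap for 22 of the 40, or 55.0%, beside 52.8% of all genes tested. All 20 of the genes called were among these 22, the other two being Kif16b and Kif24. Without replicate 3 of 393P_vector, 9 were higher and 17 lower, or 65.0% of the 40, beside 53.0% of all genes tested in that fit. Those 26 included the same 20 genes, joined by Kif18b, Kif24, Kif2a, Kif3c, Kifc1 and Kifc3. The plot of fold changes by class shows the widest range among the cargo transport kinesins and the narrowest among the mitotic kinesins.

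**Figure D1:**
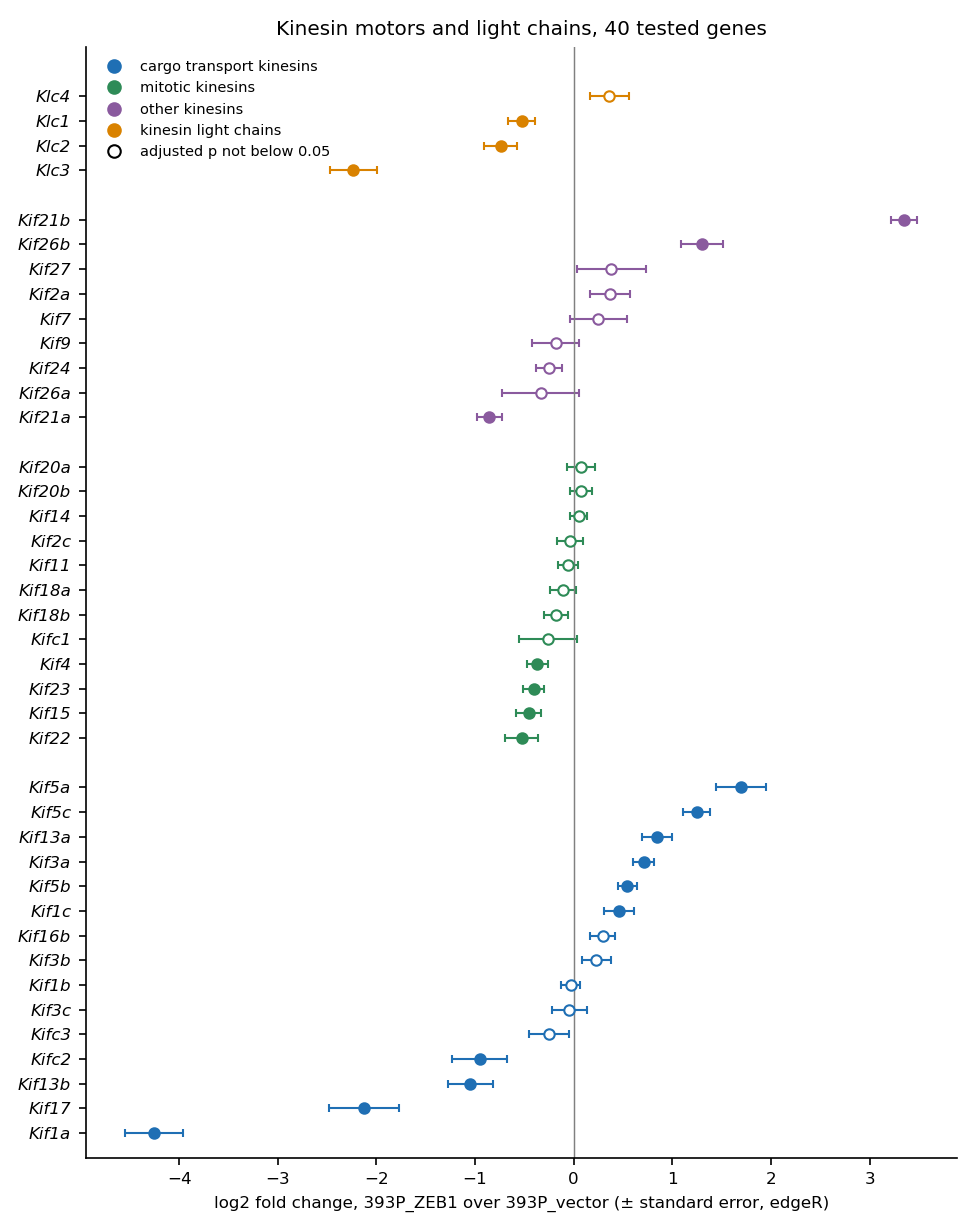
Log2 fold change of each of the 40 tested kinesin genes in 393P_ZEB1 over 393P_vector samples, on the horizontal axis, with the standard error from edgeR as bars and the genes grouped by class. Filled points passed an adjusted p of 0.05 and open points did not. The cargo transport kinesins run from -4.25 (Kif1a) to 1.70 (Kif5a), and the mitotic kinesins from -0.53 (Kif22) to 0.08 (Kif20a).

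The 4 genes that did not pass the filter, Kif2b, Kif6, Kif12 and Kif19a, had between 0 and 0.396 CPM in every sample. No fold change is given for them. Per exon length, the kinesin transcripts with the highest mean level in 393P_vector samples were Kif20a (82.7 RPKM), Kif23 (75.6 RPKM), Kif11 (62.0 RPKM) and Kif5b (56.7 RPKM). The first 3 are mitotic motors and Kif5b is a cargo motor. In 393P_ZEB1 samples the same 4 led, in the order Kif20a (86.5 RPKM), Kif5b (81.9 RPKM), Kif11 (58.9 RPKM) and Kif23 (56.7 RPKM). Neighbours in this order, such as Kif11 and Kif23 in 393P_ZEB1 samples, differed by little, and the order between them was not tested.

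The 6 cargo transport kinesins that rose and the 4 that fell, of 15 tested, had a median log2 fold change of 0.23 over the class. With replicate 3 of 393P_vector left out, 6 rose and 6 fell, beside 53.0% of all genes called, and the median was 0.10. The median was 0.09 with each gene's chromosome median subtracted, and 0.07 with limma and sample weights. The mitotic kinesins had 0 higher and 4 lower of 12 tested, with a median of -0.15. Of all genes tested, 18.3% were higher and 19.3% lower in the fit of all samples. Summed over each class, cargo transport kinesins had 196, 201 and 174 RPKM in 393P_vector samples and 238, 231 and 252 RPKM in 393P_ZEB1 samples. The mitotic kinesins summed to 426, 439 and 478 RPKM in 393P_vector samples and to 375, 415 and 411 RPKM in 393P_ZEB1 samples. Neither sum overlapped between the groups. The ratio of the cargo to the mitotic sum was 0.427 ± 0.0549 (SD, n = 3) in 393P_vector samples and 0.601 ± 0.0406 (SD, n = 3) in 393P_ZEB1 samples. Kif5b supplied 56.7 of 190.2 RPKM of the cargo sum in 393P_vector and 81.9 of 240.2 RPKM in 393P_ZEB1 samples, on average, and lies on chromosome 18, whose tested genes had a median log2 fold change of 0.64. In bulk samples fewer dividing cells and less RNA per cell cannot be told apart.

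The kinesin-1 heavy chains were the group of cargo motors in which every member rose. Kif5b, the ubiquitous heavy chain, lies at chr18:6201005-6241524 on GRCm38. It stood at 337, 331 and 340.1 CPM in 393P_vector samples and at 508, 463 and 498 CPM in 393P_ZEB1 samples. The groups did not overlap, and the replicates of each group lay close together. The rise passed the test (log2 fold change 0.54, standard error 0.10, adjusted p = 0.00322 from edgeR). Relative to the median of its chromosome, the log2 fold change of Kif5b was -0.09.

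Kif5c, a heavy chain best known from neurons, lies at chr2:49619314-49774778. It had 20.0, 16.5 and 15.0 CPM in 393P_vector samples and 40.6, 40.8 and 40.6 CPM in 393P_ZEB1 samples. All 393P_ZEB1 samples lay above all 393P_vector samples (log2 fold change 1.25, standard error 0.13, adjusted p = 0.000266 from edgeR). Kif5a, the neuronal heavy chain at chr10:127225695-127263363, was low in every sample. It had 0.707, 0.476 and 0.481 CPM in 393P_vector samples and 1.87, 2.05 and 1.47 CPM in 393P_ZEB1 samples. These values rest on between 28 and 114 counts, and the groups did not overlap (log2 fold change 1.70, standard error 0.25, adjusted p = 0.0015 from edgeR). Per exon length, Kif5b made up 95.6% ± 0.638 (SD, n = 3) of the summed heavy chain level in 393P_vector samples and 92.9% ± 0.386 (SD, n = 3) in 393P_ZEB1 samples. Kif5c made up 4.30% ± 0.609 and 6.81% ± 0.336 (SD, n = 3).

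Of the 4 kinesin light chains, Klc1, Klc2 and Klc3 fell and Klc4 did not pass the test. Light chains link the motor to its cargo adaptors and hold the motor in an inactive fold when no cargo is bound. Klc3, a light chain best known from spermatids, lies at chr7:19394440-19399856 and changed the most. It had 27.8, 31.3 and 19.5 CPM in 393P_vector samples and 4.13, 6.21 and 6.36 CPM in 393P_ZEB1 samples. The lowest 393P_vector sample, replicate 3, was still above the highest 393P_ZEB1 sample. The fall passed the test (log2 fold change -2.23, standard error 0.24, adjusted p = 0.000271 from edgeR). Ercc2, a DNA repair helicase gene, overlaps the Klc3 interval by 1253 bases on the opposite strand, and its mean count was 1594 in 393P_vector and 1246 in 393P_ZEB1 samples, against 1678 and 318 for Klc3. Whether the counting used strand is not given in the sources used here.

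Klc1, the light chain at chr12:111758849-111806775, had 83.3, 90.3 and 84.9 CPM in 393P_vector samples and 49.1, 64.8 and 65.5 CPM in 393P_ZEB1 samples. The groups did not overlap, and replicate 1 of 393P_ZEB1 was the lowest. Klc1 fell (log2 fold change -0.53, standard error 0.13, adjusted p = 0.0179 from edgeR), a call that was lost when replicate 2 of 393P_vector was left out. The interval of Klc1 overlaps that of Xrcc3, a gene on the opposite strand, by 3583 bases. Klc2, at chr19:5107746-5118408, had 65.1, 71.9 and 50.1 CPM in 393P_vector samples and 31.9, 40.1 and 39.9 CPM in 393P_ZEB1 samples. Again no sample of one group reached the other (log2 fold change -0.74, standard error 0.17, adjusted p = 0.0102 from edgeR). Klc4, at chr17:46630631-46645144, had 11.8, 13.9 and 8.75 CPM in 393P_vector samples and 12.4, 16.3 and 15.6 CPM in 393P_ZEB1 samples. Its groups overlapped, and the edgeR test was not passed (log2 fold change 0.36, standard error 0.20, adjusted p = 0.191 from edgeR). With limma and sample weights, Klc4 passed at 0.31 (adjusted p = 0.0414 from limma).

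Per exon length, the light chains together fell from 69.1 ± 6.94 RPKM (SD, n = 3) in 393P_vector samples to 41.6 ± 6.60 RPKM (SD, n = 3) in 393P_ZEB1 samples, and the Kif5 heavy chains rose from 59.3 ± 2.63 to 88.1 ± 3.00 RPKM (SD, n = 3). The ratio of heavy to light chain transcripts was 0.852, 0.750 and 0.996 in 393P_vector samples and 2.65, 1.85 and 1.98 in 393P_ZEB1 samples. Thus the light chain sum exceeded the heavy chain sum in replicates 1 and 2 of 393P_vector. In replicate 3 of 393P_vector the light and heavy chain sums were nearly equal, at 62.49 and 62.25 RPKM. The light chain sum was below the heavy chain sum in each 393P_ZEB1 sample. The share of Klc3 in the light chain sum was 22.6%, 22.9% and 18.6% in 393P_vector samples and 6.79%, 7.79% and 7.99% in 393P_ZEB1 samples. Klc3 fell from place 16 to place 28 of the 44 genes in order of mean RPKM.

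**Figure D2:**
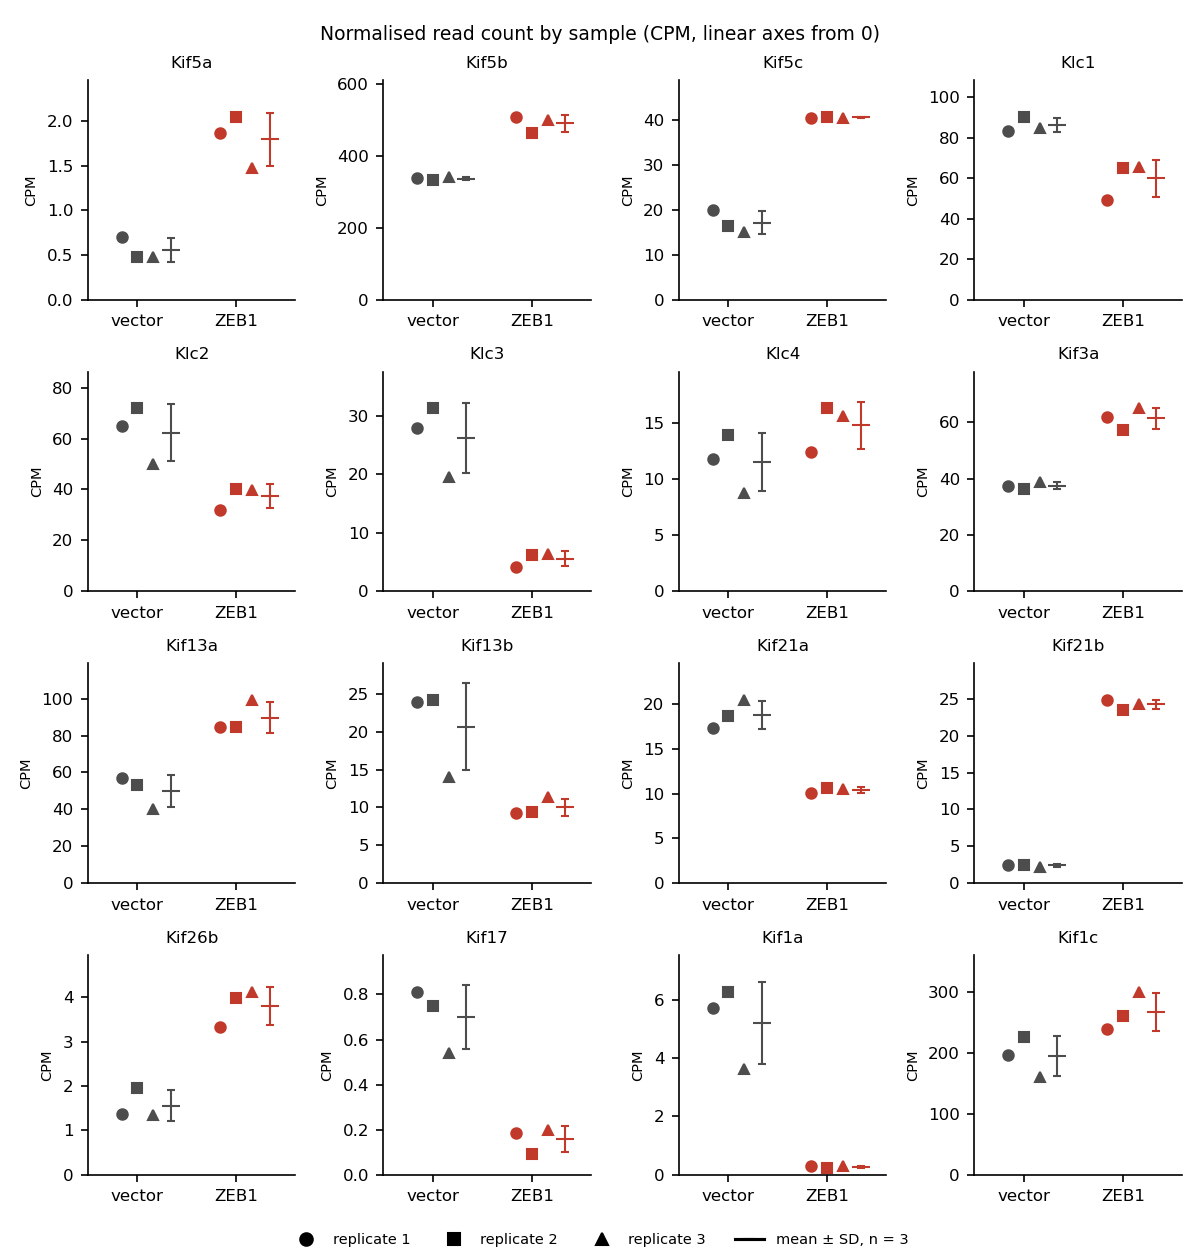
CPM of 16 kinesin genes in each sample, 1 panel per gene, on linear vertical axes from 0 that differ between panels. Symbols mark replicates 1 to 3, and the bar beside them is the mean and SD of 3 samples. Of these genes, Klc4 is the one whose groups overlap, and replicate 3 of 393P_vector is the lowest of its group for 11 of the 16.

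Kif13a and Kif13b are closely related kinesin-3 motors. Kif13a carries recycling endosomes and adaptor-bound vesicles toward the plasma membrane, and Kif13b carries membrane cargo bound to the scaffold protein Dlg1. Kif13a, at chr13:46749088-46929718, had 56.8, 53.0 and 40.4 CPM in 393P_vector samples and 84.9, 84.7 and 99.4 CPM in 393P_ZEB1 samples. The groups did not overlap (log2 fold change 0.84, standard error 0.15, adjusted p = 0.00368 from edgeR). Kif13b, at chr14:64652531-64806296, had 23.9, 24.2 and 14.0 CPM in 393P_vector samples and 9.27, 9.42 and 11.4 CPM in 393P_ZEB1 samples. It fell (log2 fold change -1.05, standard error 0.23, adjusted p = 0.00898 from edgeR), with replicate 3 of 393P_vector nearest to the other group. Without that sample the log2 fold change was 0.71 for Kif13a and -1.26 for Kif13b.

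The ratio of Kif13a to Kif13b, per exon length, was 2.02 ± 0.294 (SD, n = 3) in 393P_vector samples and 7.31 ± 0.171 (SD, n = 3) in 393P_ZEB1 samples. The ratios did not overlap between groups, and 0.1 is the smallest p that an exact permutation test of 3 samples against 3 can give.

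Of the other kinesin-3 motors, Kif1a fell by the most of all kinesin genes. Kif1a carries synaptic vesicle precursors and dense core vesicles in neurons, and lies at chr1:93015456-93101865. It had 5.71, 6.27 and 3.62 CPM in 393P_vector samples and 0.280, 0.234 and 0.295 CPM in 393P_ZEB1 samples. All values of 393P_vector were far above all of 393P_ZEB1, where between 13 and 18 reads were counted per sample. It fell (log2 fold change -4.25, standard error 0.29, adjusted p = 2.34e-05 from edgeR). In the authors' tables, between 5 and 7 of its 48 exons had more than 10 reads in 393P_vector samples, and 0 in each 393P_ZEB1 sample. Kif1c, which carries integrins and dense core vesicles, rose by 0.46 (standard error 0.15, adjusted p = 0.0475 from edgeR) from 194.8 ± 33.1 to 268 ± 31.0 CPM (SD, n = 3). It lies on chromosome 11, whose median log2 fold change was 0.27, and relative to that median Kif1c was at 0.19. The Kif1c call was lost when any 1 of 4 samples was left out, namely replicate 1 of 393P_vector or any of 393P_ZEB1. Kif1b, a carrier of mitochondria and synaptic vesicle precursors, had a log2 fold change of -0.03, and Kif16b, a motor of early endosomes, one of 0.29 (adjusted p = 0.112 from edgeR). The groups of Kif16b did not overlap.

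The kinesin-2 motors form a complex of Kif3a with Kif3b or Kif3c and the accessory subunit Kifap3, and drive intraflagellar transport as well as other vesicle movement. Kif3a, at chr11:53567379-53604244, had 37.5, 36.2 and 38.9 CPM in 393P_vector samples and 61.9, 57.4 and 65.0 CPM in 393P_ZEB1 samples. The groups were well apart (log2 fold change 0.71, standard error 0.10, adjusted p = 0.00132 from edgeR). Relative to the median of chromosome 11, the log2 fold change of Kif3a was 0.44. Kif3b, at chr2:153291416-153333389, had 153, 154 and 114 CPM in 393P_vector samples and 178, 149 and 167 CPM in 393P_ZEB1 samples. Kif3b overlapped between groups and did not pass (log2 fold change 0.23, standard error 0.14, adjusted p = 0.246 from edgeR). Kif3c, at chr12:3365132-3406494, had 88.0, 87.1 and 56.8 CPM in 393P_vector samples and 75.4, 71.6 and 78.0 CPM in 393P_ZEB1 samples. It did not pass the test either (log2 fold change -0.04, standard error 0.17, adjusted p = 0.869 from edgeR). Without replicate 3 of 393P_vector, its log2 fold change was -0.22 and passed (adjusted p = 0.0312 from edgeR).

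Kifap3 had 63.8, 62.4 and 70.1 CPM in 393P_vector samples and 87.5, 84.2 and 86.1 CPM in 393P_ZEB1 samples. It rose without overlap (log2 fold change 0.39, standard error 0.10, adjusted p = 0.0154 from edgeR). The Kifap3 call was kept in 1 of the 6 fits that left out a sample, the fit without replicate 3 of 393P_vector. The Kif3a to Kif3b ratio, per exon length, was 0.285 ± 0.0612 (SD, n = 3) in 393P_vector samples and 0.388 ± 0.0236 (SD, n = 3) in 393P_ZEB1 samples. Kif17, the homodimeric kinesin-2 motor, had 0.813, 0.748 and 0.542 CPM in 393P_vector samples and 0.187, 0.0900 and 0.197 CPM in 393P_ZEB1 samples. It fell by 2.12 on the log2 scale (standard error 0.35, adjusted p = 0.00261 from edgeR), from a level of between 44 and 46 reads per 393P_vector sample. The minus-end directed Kifc2 fell by 0.95 (adjusted p = 0.0306 from edgeR), and Kifc3 had a log2 fold change of -0.25 (adjusted p = 0.373 from edgeR). The Kifc2 call was kept in 1 of the 6 fits that left out a sample, the fit without replicate 3 of 393P_vector.

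The kinesin-4 paralogs Kif21a and Kif21b, which pause or slow microtubule growth at the cell cortex and in axons and dendrites, also moved apart. Kif21b, at chr1:136131401-136178014, was the kinesin gene with the largest rise. It had 2.51, 2.45 and 2.19 CPM in 393P_vector samples and 24.9, 23.6 and 24.4 CPM in 393P_ZEB1 samples. The groups differed 10.2-fold in their means, with little spread within either (log2 fold change 3.35, standard error 0.13, adjusted p = 1.94e-06 from edgeR). By the authors' exon counts, 1 of its 35 exons had more than 10 reads in each 393P_vector sample, and 25, 28 and 30 exons had in the 393P_ZEB1 samples.

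Kif21a, at chr15:90933276-91049948, had 17.3, 18.7 and 20.5 CPM in 393P_vector samples and 10.1, 10.7 and 10.5 CPM in 393P_ZEB1 samples. It fell, with no overlap (log2 fold change -0.85, standard error 0.12, adjusted p = 0.00126 from edgeR). Chromosome 15 as a whole had a median log2 fold change of -0.33, relative to which Kif21a was at -0.52. The ratio of Kif21b to Kif21a, per exon length, was 0.0897 ± 0.0140 (SD, n = 3) in 393P_vector samples and 1.65 ± 0.0915 (SD, n = 3) in 393P_ZEB1 samples. In each 393P_vector sample Kif21a was the more abundant of the pair, and in each 393P_ZEB1 sample Kif21b was.

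**Figure D3:**
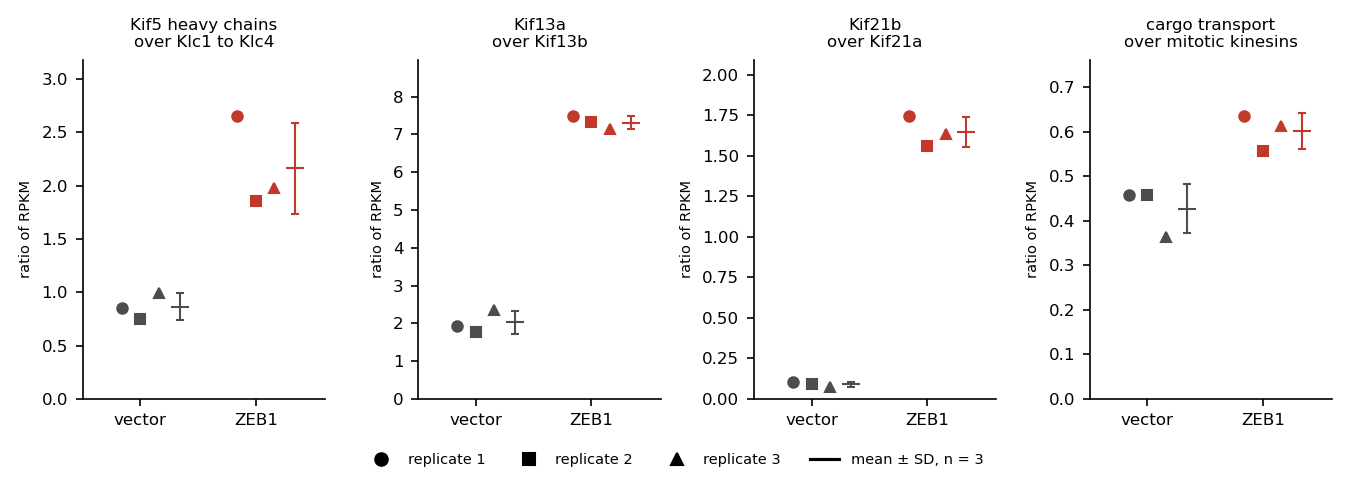
Ratios of RPKM in each sample on linear vertical axes from 0, for the summed Kif5 heavy chains over the summed light chains, Kif13a over Kif13b, Kif21b over Kif21a, and the summed cargo transport over the summed mitotic kinesins. Symbols mark replicates 1 to 3, and the bars are the mean and SD of 3 samples. All 4 ratios are higher in every 393P_ZEB1 sample than in any 393P_vector sample.

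Kif26b, an atypical kinesin that lacks motor ATPase activity and acts in cell adhesion and kidney development, lies at chr1:178529125-178932857. It had 1.36, 1.96 and 1.34 CPM in 393P_vector samples and 3.33, 3.98 and 4.13 CPM in 393P_ZEB1 samples. The rise was larger than the spread (log2 fold change 1.30, standard error 0.21, adjusted p = 0.00243 from edgeR). Its relative Kif26a was near the floor, at between 0.131 and 0.262 CPM, and did not pass. The other members outside the transport and mitotic classes were the microtubule depolymerase Kif2a, the centriolar Kif24, the ciliary Hedgehog regulator Kif7, and Kif9 and Kif27. Their log2 fold changes lay between -0.25 (Kif24) and 0.38 (Kif27), and none passed the edgeR test, whose adjusted p lay between 0.177 and 0.578. When replicate 3 of 393P_vector was left out, Kif2a passed at 0.61 and Kif24 at -0.32.

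The mitotic kinesins that passed were Kif4, Kif15, Kif22 and Kif23, all lower in 393P_ZEB1 cells. Kif22, the chromokinesin Kid that pushes chromosome arms away from the poles, lies at chr7:127027731-127042420. It had 59.1, 61.2 and 80.5 CPM in 393P_vector samples and 38.7, 48.6 and 52.0 CPM in 393P_ZEB1 samples. The groups did not overlap, and replicate 3 of 393P_vector was the highest sample (log2 fold change -0.53, standard error 0.17, adjusted p = 0.0402 from edgeR). Kif23, the centralspindlin motor required for cytokinesis, lies at chr9:61917278-61946799. It had 239, 244 and 278 CPM in 393P_vector samples and 179.6, 201 and 196 CPM in 393P_ZEB1 samples. It fell, again without overlap (log2 fold change -0.40, standard error 0.11, adjusted p = 0.0203 from edgeR). Kif15, which helps to keep spindle poles apart, had 47.5, 48.1 and 54.1 CPM in 393P_vector samples and 40.4, 32.1 and 36.8 CPM in 393P_ZEB1 samples. It fell by 0.45 on the log2 scale (standard error 0.13, adjusted p = 0.024 from edgeR). The chromokinesin Kif4, which condenses chromosomes and shapes the spindle midzone, had 168, 170.2 and 143 CPM in 393P_vector samples and 117, 123 and 133 CPM in 393P_ZEB1 samples. It fell by 0.37 on the log2 scale (standard error 0.11, adjusted p = 0.0335 from edgeR). For neither gene did a 393P_ZEB1 sample reach the lowest 393P_vector sample.

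Kif11, the Eg5 motor that separates the spindle poles, did not pass. It lies at chr19:37376403-37421859 and had 292, 278 and 311 CPM in 393P_vector samples and 304, 276 and 265 CPM in 393P_ZEB1 samples. The groups overlapped (log2 fold change -0.06, standard error 0.10, adjusted p = 0.686 from edgeR). The other seven mitotic kinesins without a call were the centromeric depolymerase Kif2c, the cytokinesis motors Kif14, Kif20a and Kif20b, the regulators of spindle microtubule length Kif18a and Kif18b, and Kifc1, which focuses the spindle poles. Their log2 fold changes lay between -0.26 (Kifc1) and 0.08 (Kif20a), and the groups overlapped for each. Over the class, 9 log2 fold changes were negative and 3 positive. The count of 4 changed when single samples were left out. In those fits the 4 log2 fold changes stayed between -0.61 (Kif22) and -0.32 (Kif4). Over the same fits, the number of all genes called lower ranged from 1784 to 3776, beside 2679 in the fit of all samples. Of the 6 fits that left out 1 sample each, Kif15 and Kif23 passed in 3, Kif22 in 2 and Kif4 in 1. The count was 0 without replicate 2 or without replicate 3 of 393P_ZEB1, 1 without replicate 1 of 393P_ZEB1, 2 without replicate 1 or 2 of 393P_vector, and 6 without replicate 3 of 393P_vector, which added Kif18b and Kifc1. Kifc1 has a close paralog, Kifc5b, and Kif4 a pseudogene, Kif4-ps, and how the authors assigned reads shared by such copies is not given in the sources used here. Kif4-ps had 6 to 36 counts per sample against 6259 to 11909 for Kif4, and Kifc5b had 267 to 700 against 1232 to 2314 for Kifc1.

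**Figure D4:**
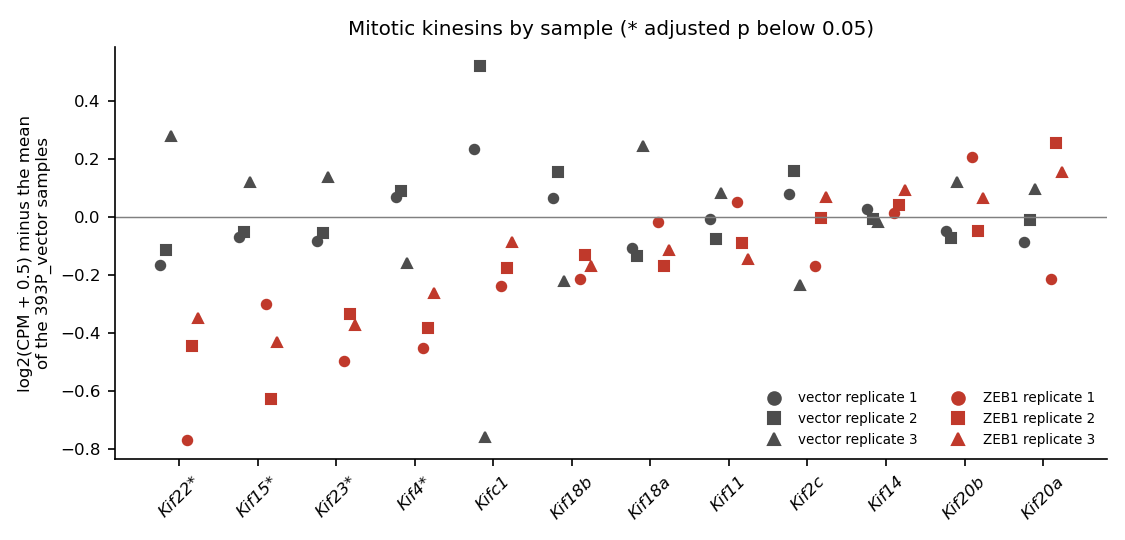
Level of the 12 tested mitotic kinesins in each sample, as log2(CPM + 0.5) minus the mean of the 393P_vector samples, on the vertical axis. Genes stand in order of fold change, symbols mark replicates 1 to 3, and asterisks mark an adjusted p below 0.05 from edgeR. The 393P_ZEB1 samples lie below all 393P_vector samples for Kif22, Kif15, Kif23 and Kif4, and the groups overlap for the other eight.

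Genes that work with the kinesins were counted in the same fit, in which 18.3% of all genes tested were higher and 19.3% lower. Of 24 tested kinesin partners and cargo adaptors, 5 rose and 5 fell, with a median log2 fold change of 0.13. The largest rises at a mean of at least 5 CPM were of Trak1 (0.66) and Trak2 (0.55), which tie Kif5 motors to mitochondria, and of Dlg1 (0.65), the scaffold bound by Kif13b. At the same minimum level, the largest falls were of Mapk8ip3 (-0.98), the light chain binding adaptor JIP3, Hap1 (-0.89), the huntingtin-associated adaptor, and Madd (-0.49), which links Kif1a and Kif1b to Rab3 vesicles. Grip1, an adaptor for glutamate receptors with a mean below that level, fell more (-1.28). The Hap1 and Madd calls were each kept in 1 of the 6 fits that left out a sample, and the Trak1 call in 3. Leaving out replicate 3 of 393P_vector gave 10 that rose and 8 that fell, beside 53.0% of all genes called in that fit. Of 31 tested dynein and dynactin genes, which serve transport toward the minus ends, 7 rose and 2 fell, with a median of 0.04. At a mean of at least 5 CPM, Dctn4 (0.87), Bicd1 (0.87) and Bicd2 (0.51) had the largest rises, Rilp rose more (1.89) from a lower level of 0.832 CPM, and Hook1 (-1.52) and Actr1b (-0.81) were the 2 that fell. The fit lacking replicate 3 of 393P_vector gave 11 and 6. The Bicd2 call was kept in 2 of the 6 fits that left out a sample. Dctn4 lies on chromosome 18, and relative to the median of that chromosome its log2 fold change was 0.24.

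Of 35 mitotic and proliferation genes outside the naming rule, 1 rose and 7 fell, beside 18.3% and 19.3% of all genes tested. Their median log2 fold change was -0.26, beside -0.15 for the mitotic kinesins. Kntc1, a kinetochore checkpoint gene, rose by 0.46. Anln (-0.66), a scaffold of the cytokinetic ring, Ccna2 (-0.58) and Aurka (-0.58) had the largest falls. Prc1 and Racgap1, the midzone partners of Kif4 and Kif23, fell by 0.51 and 0.49. The Racgap1 call was kept in 1 of the 6 fits that left out a sample, and the Ccna2 call in 3. Without replicate 3 of 393P_vector, the log2 fold change of Ccna2 was -0.33. Cenpe, also among the 35, is a mitotic kinesin whose symbol is outside the rule. It had a log2 fold change of 0.03 and did not pass (adjusted p = 0.871 from edgeR). Without replicate 3 of 393P_vector, 3 of the 35 rose and 18 fell, beside 53.0% of all genes called in that fit. The summed level of 5 neuronal markers was 3.35 to 3.96 CPM in 393P_vector and 3.55 to 5.69 CPM in 393P_ZEB1 samples. Of these, Snap25 rose from 0.0488 to 2.71 CPM on average, Tubb3 fell by 1.15 on the log2 scale, and Rbfox3 was between 0.106 and 0.187 CPM. Their part in the levels of Kif1a, Kif5a, Kif5c and Kif21b was not tested.

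The miR-200 family, which targets Zeb1 and Zeb2 transcripts and is itself repressed by ZEB1, pairs with 3′ UTRs through its seed. The family has 2 seeds, which differ by 1 base. The mature sequences, from RefSeq (GRCm38.p6), are shown 5′ to 3′ with bases 2 to 8, the seed, in capitals, because these bases define the sites searched for. The level of the mature microRNAs was not analysed here.
miR-200b: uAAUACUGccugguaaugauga
miR-200c: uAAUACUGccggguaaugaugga
miR-429: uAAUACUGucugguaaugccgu
miR-141: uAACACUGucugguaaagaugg
miR-200a: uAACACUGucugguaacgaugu

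A site was a match to bases 2 to 8, which reads CAGTATT for miR-200b, miR-200c and miR-429 and CAGTGTT for miR-141 and miR-200a, on the strand of the transcript. Neither motif can overlap the other. One 3′ UTR was searched per gene, that of its longest GENCODE M21 coding transcript, and was found for 39 of the 40 tested kinesin genes, all but Kif3a. A site of either kind was in 11 of the 39 (28.2%), beside 28.0% of 11843 tested genes with a 3′ UTR. Among the kinesin genes that rose, 6 of 7 had one (Kif1c, Kif5b, Kif5c, Kif13a, Kif21b and Kif26b, not Kif5a). Among those that fell, 1 of 12 had one (Kif13b). The same shares were 32.9% of all genes that rose and 24.2% of all genes that fell.

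The length of the 3′ UTR moved with these counts. Its median was 2759 nucleotides for the kinesin genes that rose and 536 for those that fell, against 662 for the 39 genes and 995 for all genes. The 3′ UTRs of the 7 that rose were 1519 to 6972 nucleotides long, and among the 4056 tested genes with a length in that range, 52.2% had a site. Among tested kinesin genes of that length that did not rise, Kif3b, Kif3c, Kif13b and Kif14 had a site and Kif1b had none. The part of length in the counts was not tested. With any annotated 3′ UTR of each gene searched instead, 6 of the 8 that rose and 1 of the 12 that fell had a site, beside 32.0% of all genes. The sites are shown, 30 bases each on the transcript's strand with the match in capitals, for 5 of the 6 genes that rose and for Kif13b, the gene that fell, since Kif13a and Kif13b are paralogs that moved apart.
Kif13a, chr13:46750369-46750375, minus strand: tacctacgtggCAGTATTttcgtacaagcc
Kif13b, chr14:64809024-64809030, plus strand: gggcagagggcCAGTGTTtctgggctgtgt
Kif21b, chr1:136176861-136176867, plus strand: aggacccatccCAGTATTaaccagttcagt
Kif21b, chr1:136176876-136176882, plus strand: attaaccagttCAGTGTTtggtcttgttgg
Kif5c, chr2:49772738-49772744, plus strand: gccctttataaCAGTGTTttgtttttaatt
Kif1c, chr11:70729188-70729194, plus strand: gtctgcatagcCAGTGTTtgactttctttt
Kif26b, chr1:178937779-178937785, plus strand: aaaagtgctgaCAGTATTaagttctactct

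Kif13a and Kif13b thus held matches to different seeds. The Kif13b and Kif26b sites lay downstream of the counted interval, so their presence in the transcripts of these cells was not seen in the counts. The pair of Kif21b sites lay 15 bases apart. The Kif5b site and 2 further sites of Kif26b are not shown. Among the genes that did not pass, Kif3b, Kif3c, Kif9 and Kif14 each had 1 site.

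**Figure D5:**
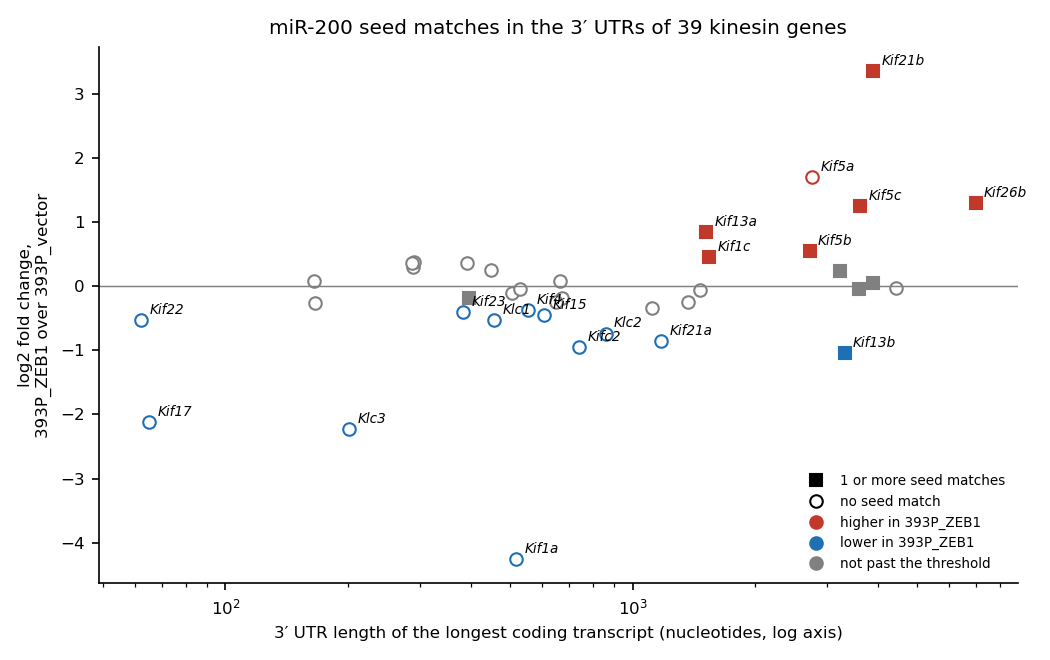
Log2 fold change in 393P_ZEB1 over 393P_vector samples on the vertical axis against 3′ UTR length on a log axis, for the 39 kinesin genes with a 3′ UTR. Squares hold 1 or more miR-200 seed matches, circles none, and colours mark genes that rose, fell or did not pass. The 7 genes that rose all lie at 1519 nucleotides or more, and Kif13b is the one gene that fell with a match.

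ZEB1 is known to bind E-boxes of the form CACCTG, which reads CAGGTG on the other strand, and the 2 forms cannot overlap. Promoter windows of 300 bases, most of them upstream of the start site, were given by RefSeq (GRCm38.p6) for 32 of the 40 tested kinesin genes. An E-box was found on either strand in 8 of the 32 (25.0%), beside 21.1% of 9748 tested genes. It was in 1 of 5 kinesin genes that rose and 3 of 9 that fell, beside 21.4% and 26.8% of all genes that rose and fell. The boxes in the genes with a call are shown in capitals within 30 bases on the gene's strand.
Klc3, chr7:19404139-19404144, minus strand: gcgcggcctgcgCACCTGcgggggcgtggc
Kif1a, chr1:93082638-93082643, minus strand: tagtgcttttctCACCTGtagctacctgct
Kif21a, chr15:91050052-91050057, minus strand: ccacagagggggCAGGTGgctgcggggacg
Kif5c, chr2:49619184-49619189, plus strand: gccttgccctccCACCTGcaggtagagtgg

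Kif1a held a second box that began 3 bases before its start site and ran across it. The start sites used for Klc3 and Kif1a differ from the ends of the intervals counted by the authors, which reach 19399856 and 93101865, so these windows are those of other annotated starts.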

How the data were processed

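RNA sequencing of 6 samples of 393P cells, 3 per group by their titles, was analysed. The authors deposited 1 table per sample with the raw read count of each of 24214 RefSeq features (GRCm38), the RPKM (count scaled by exon length and total reads) and another column, the number of exons with more than 10 reads. The aligner and counter are not given in the sources used here. Counts were tested in R 4.3.3 with edgeR 4.0.16: filterByExpr with a minimum count of 10, TMM, a robust quasi-likelihood fit of the group, and Benjamini-Hochberg adjustment over 13892 genes called below 0.05. TMM factors were 0.979 to 1.05, and edgeR's common biological coefficient of variation was 0.184. No row lacked a gene name, and features at more than 1 locus or with a repeated symbol numbered 1159.

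The members, role lists and sequence searches were chosen with earlier results of these data known, so no test was run on a list. Full values are given for the 6 largest rises and 6 largest falls past the threshold at a mean of at least 1 CPM, and for Kif13a, Kif13b, the Kif5 genes, the kinesin-2 motors with Kifap3, Kif11, Kif23 and the light chains; other members are given by fold change, range or count, with some values added after they were seen. From other lists, up to 3 rises and 3 falls past the threshold at a mean of at least 5 CPM were named, besides Prc1, Racgap1, Cenpe and markers, chosen after their values were seen. Alternatives were DESeq2 1.42.0, its size factors, limma 3.58.1 with sample weights, other filters and thresholds, a replicate block, chromosome medians, each sample left out, and other class lists. The main edgeR fit, but none of the alternatives, was tested on simulated counts. Sequences came from GENCODE M21 and RefSeq through Python 3.11.15, pandas 2.3.3 and NumPy 2.4.6.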

Additional observations from a re-analysis of the deposited data

How the results depend on the processing

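The limits of these results are few samples and 1 outlying sample. Under the Wald test of DESeq2, its size factors within edgeR, no filter on low counts, and without features at more than 1 locus, all 40 tested kinesin genes kept their direction and their side of the threshold. With at least 10 counts in every sample, Kif17 and Kif26a were no longer tested and Kif1c was no longer past the threshold, which left 7 higher and 11 lower. Replicate numbers are shared by the groups, but the labels do not say that equal numbers were handled together. The numbers were therefore not taken to pair the samples. Deviations of same-numbered samples from their group means correlated at 0.279, -0.206 and -0.038. With 3 samples per group, these correlations cannot show whether the samples were paired. With the number as a replicate block, 7 kinesin genes were higher and 9 lower, since Kif1c, Kif4, Kif15 and Kifc2 were no longer past the threshold. The block left 2 mitotic kinesins lower, 3 partners lower and 4 dynein and dynactin genes higher.

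At an adjusted p of 0.01, 5 kinesin genes were lower, with 0 mitotic kinesins and 1 light chain among them. The counts were then 3 higher and 2 lower of the partners, 4 higher of the dynein and dynactin genes, 0 higher and 4 lower of the proliferation genes, and 1584 higher and 1545 lower of all genes. Tested against a fold change of 1.5, 4 kinesin genes were higher (2 cargo kinesins) and 3 lower (2 cargo kinesins, 1 light chain, 0 mitotic kinesins). The other counts were 0 and 1 of the partners, 3 and 1 of the dynein and dynactin genes, 0 and 0 of the proliferation genes, and 1081 and 1118 of all genes. With limma and sample weights, 27 kinesin genes passed, including the 20 called by edgeR and 1 light chain (Klc4) that was higher. That fit called 10 partners higher and 9 lower, 11 dynein and dynactin genes higher and 7 lower, 3 proliferation genes higher and 19 lower, and 3977 genes higher and 4094 lower in all.

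Over the fits that left out 1 sample each, the kinesin genes called ranged from 7 to 9 higher and from 7 to 17 lower. The lowest counts came without replicate 2 or 3 of 393P_ZEB1 and the highest without replicate 3 of 393P_vector. Mitotic kinesins ranged from 0 to 6 lower, cargo kinesins from 5 to 6 higher and 3 to 6 lower, and light chains from 2 to 3 lower. Partners ranged from 3 to 10 higher and 2 to 8 lower, dynein and dynactin genes from 4 to 11 and 2 to 6, proliferation genes from 1 to 3 and 4 to 18, and all genes from 1861 to 3700 and 1784 to 3776. The median log2 fold change stayed between -0.22 and -0.10 for the mitotic and between 0.10 and 0.31 for the cargo kinesins in these fits. For the cargo kinesins it was 0.09 with the chromosome median subtracted and 0.07 with limma and sample weights, against 0.23. No called gene changed sign in these fits. Of the genes not past the threshold in the fit of all samples, 7 changed sign in at least 1 of these fits. Their log2 fold changes ranged from -0.175 to 0.0229 for Kif18a, -0.151 to 0.0428 for Kif2c, -0.0727 to 0.0202 for Kif1b, -0.0428 to 0.517 for Kif7, -0.223 to 0.0656 for Kif3c, -0.560 to 0.0180 for Kifc1 and -0.0122 to 0.209 for Kif20a. With the chromosome median subtracted, the log2 fold change of Kif5b was -0.0928. The other 19 genes called kept their sign, but Kif1c moved to 0.19, Kif3a to 0.44, Kif23 to -0.26, Kifc2 to -0.62 and Kif21a to -0.52, each a move of over 1.5 times. These moves follow from the subtraction itself, and no cause was tested.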

Other observations

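Related features outside the naming rule were counted on their own. Kifc5b, a paralog of Kifc1 on chromosome 17, had 10.3, 11.9 and 5.06 CPM in 393P_vector samples and 4.99, 6.37 and 6.37 CPM in 393P_ZEB1 samples. It did not pass the test (log2 fold change -0.62, standard error 0.31, adjusted p = 0.151 from edgeR). With replicate 3 of 393P_vector left out, its log2 fold change of -0.91 passed (adjusted p = 0.000457 from edgeR). Kifc1 had 32.2, 39.3 and 15.9 CPM in 393P_vector samples and 23.0, 24.1 and 25.6 CPM in 393P_ZEB1 samples. In both, replicate 3 of 393P_vector had less than replicates 1 and 2. Kif4-ps, a pseudogene of Kif4, was between 0.112 and 0.433 CPM. Kif20a, on chromosome 18, overlaps Brd8 by 187 bases and Cdc23 by 1595 bases on the opposite strand, and had a log2 fold change of 0.08.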
